A study of Mus musculus with 13 samples.

Results

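Interferon-stimulated genes are genes whose transcripts rise when a cell receives interferon. Here 36 of them, listed by name with earlier results of these data known, were followed through 4 groups of mouse alveolar macrophages. All 36 matched a single gene ID among the 43430 genes of the count table, and 28 had enough counts to be tested. The other 8 (Ifit1, Ifit3, Oasl2, Rsad2, Cmpk2, Usp18, Mx1 and Ifi44) were too low and are given by their counts.

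The study asked how particulate matter (PM), the particles suspended in polluted air, and metformin, a biguanide drug for type 2 diabetes, act on the macrophages of the airspace. Male C57Bl/6 mice aged 10 weeks received 10 µg of standardised PM from NIST, or phosphate-buffered saline (PBS), into the trachea, and their alveolar macrophages were sorted by flow cytometry 24 h later. Metformin at 100 mg/kg/day, or vehicle, was in the drinking water from 24 h before the instillation. The groups were metformin PM (libraries 1, 3 and 4), vehicle PM (libraries 1, 2 and 3), metformin PBS (libraries 1, 3 and 4) and vehicle PBS (libraries 1, 2, 3 and 4), with the numbers taken from the sample titles. The labels name no transgene, deletion or infection, and every mouse was instilled, so no group shows untouched lung. The 13 libraries, made from polyadenylated RNA, held 5567481 to 8100538 gene counts each, with 6514625 to 8100538 in metformin PM. All 14 of 14 alveolar macrophage markers were detected. CPM are counts per library of 1e+06 gene counts, after scaling by the trimmed mean of M values. The markers summed to 29350 to 32060 CPM in metformin PM and 28020 to 30530 CPM in vehicle PM. Their sums were 26720 to 28680 CPM in metformin PBS and 28740 to 32800 CPM in vehicle PBS. At an adjusted p under 0.05 in edgeR's test, PM with vehicle had 5 of the 14 higher and 3 lower. PM with metformin had 7 higher and 3 lower. Metformin had 2 lower after PBS and 2 lower after PM.

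Interferons are secreted proteins that bind receptors on the same or a neighbouring cell. The receptors' kinases, Jak1 and Tyk2, phosphorylate STAT proteins. A complex that holds Stat2 and Irf9 then binds a motif called the interferon-stimulated response element, while interferon gamma acts through another motif, the gamma-activated site. The induced genes encode sensors of foreign nucleic acid, enzymes that degrade or edit it, ubiquitin-like modifiers and factors that hold viruses at membranes. In alveolar macrophages, which meet inhaled virus first, they form a main arm of antiviral defence, and many are kept at a low basal level.

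Promoter stretches with the response element are printed for 2 members called below (Stat2 and Bst2) and for 4 familiar readouts of interferon. Among 29 members with a RefSeq promoter window (300 bases, 250 before and 50 after the start, mouse build GRCm38.p6), GAAA followed by any 2 bases and GAAA again, the core of the response element, stood in 15 (51.7%), against 3.99% of 27025 genes. TTCNNNGAA, the core of the gamma-activated site, stood in 9 (31%), against 9.55% of genes. Both strands were searched and overlapping matches were counted separately; a match is a run of letters, not a measured binding site. Capitals mark the matches of the response element core, or of its reverse complement, and each stretch reads 5′ to 3′ on the gene's own strand. The Stat2 stretch lies at chr10:128270261-128270300 (plus strand), Bst2 at chr8:71537572-71537617 (minus), Gbp2 at chr3:142620589-142620628 (plus), Isg15 at chr4:156200860-156200911 (minus), Ifit1 at chr19:34640770-34640828 (plus) and Oas1a at chr5:120907526-120907560 (minus).
Stat2: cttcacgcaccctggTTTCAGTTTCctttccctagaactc
Bst2: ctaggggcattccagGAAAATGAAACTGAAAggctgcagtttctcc
Gbp2: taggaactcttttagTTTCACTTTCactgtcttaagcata
Isg15: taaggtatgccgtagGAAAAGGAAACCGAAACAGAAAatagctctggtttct
Ifit1: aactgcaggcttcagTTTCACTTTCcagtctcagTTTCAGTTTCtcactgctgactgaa
Oas1a: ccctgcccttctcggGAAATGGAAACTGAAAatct
Isg15 held 3 overlapping matches, Bst2 and Oas1a 2 overlapping matches each, and Ifit1 2 separate matches. The window of Trim25 held neither motif, and that of Samhd1 held TTCNNNGAA alone. In Ifitm3 the 2 matches of the response element core began after the start site.

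The members spanned a wide range of levels, with the IFIT proteins toward the low end. Per kilobase of exon, over all 13 libraries, Trim25 averaged 92.6 CPM per kb, higher than 95.7% of tested genes. Samhd1 averaged 42.3 CPM per kb and Bst2 33.2 CPM per kb. Ifit2, the most abundant of the IFIT proteins per length, averaged 0.501 CPM per kb. The median level was 7.11 CPM per kb over the 28 tested members, 0.153 CPM per kb over the 8 untested members and 6.48 CPM per kb over the tested genes with a known exon length.

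**Figure D1:**
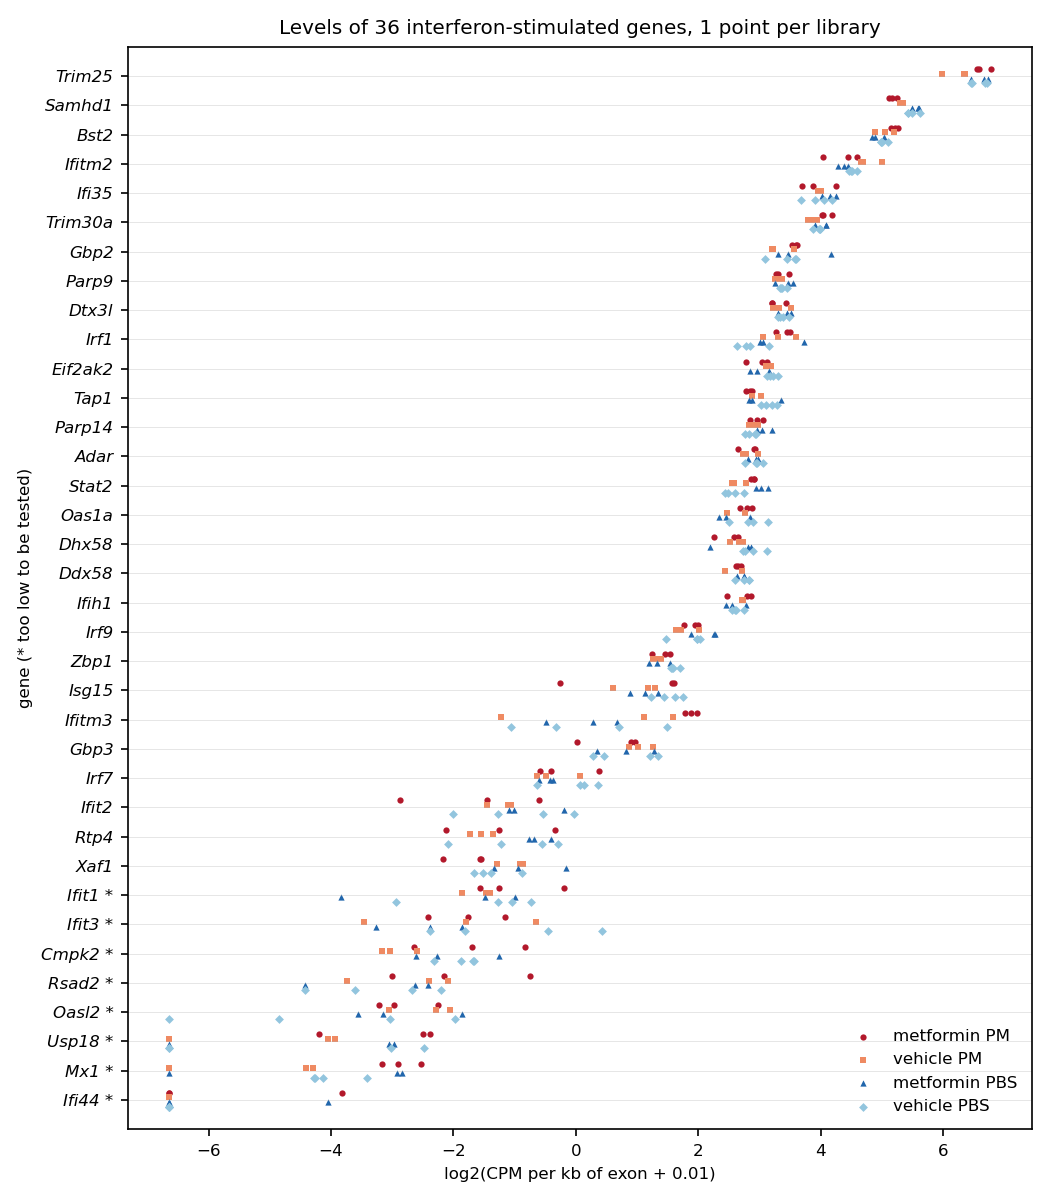
Level of each of the 36 genes in each of the 13 libraries, as log2 of CPM per kb of exon plus 0.01, ordered by mean level; symbols mark the 4 groups and an asterisk marks a gene too low to test. Trim25 and Samhd1 stand at the top, and the points of the 4 groups overlap for most genes.

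Few members were called, and all but the scarce Ifitm3 by less than 1.5-fold. A gene was called at an adjusted p under 0.05 from edgeR's quasi-likelihood test with Benjamini-Hochberg adjustment over all 11906 tested genes. PM with vehicle called 1 of 28 members, Trim25 (lower), or 3.57%, against 4.85% of all tested genes. PM with metformin called 3 of 28 (10.7%), Bst2 and Ifitm3 (higher) and Samhd1 (lower), against 12.8% of all tested genes. Of these, Ifitm3 had enough counts to be tested only through metformin PM, the group where it was high. Metformin after PBS called 1 of 28, Stat2 (higher), against 3.07% of all tested genes. Metformin after PM called 1 of 28, Trim25 (higher), against 6.89% of all tested genes. The difference of the PM effects (metformin minus vehicle) called 0 of 28, against 1.44% of all tested genes. There, 4 members had an unadjusted p under 0.05 in edgeR (11.6% of all tested genes did), and DESeq2 also called 0. PM averaged over drinking water called 1 of 28, Samhd1 (lower), against 16.4% of all tested genes. Metformin averaged over instillate called 2 of 28 (7.14%), Stat2 and Trim25 (both higher), against 10.8% of all tested genes. Across the 7 comparisons this made 9 calls in 5 members, and 23 tested members were called in none.

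The sensors of foreign nucleic acid were called in no comparison, and 3 of the 4 were held within narrow limits. They are Ifih1 and Ddx58, helicases that bind viral double-stranded RNA, Dhx58, a related helicase that tunes them, and Zbp1, which binds Z-form nucleic acid and can start cell death. For each gene and comparison the size limit is the larger fold, in either direction, that the 95% interval of the fold change still allows. These intervals were not adjusted for their number. Over the 7 comparisons the widest size limit was 1.241-fold for Ddx58, 1.247-fold for Ifih1, 1.451-fold for Dhx58 and 1.653-fold for Zbp1. Dhx58, the sensor with the highest level per length, had 15.6, 19.5 and 20.5 CPM in metformin PM and 20.8, 21.8 and 18.7 CPM in vehicle PM. It had 14.9, 23.7 and 22.9 CPM in metformin PBS and 28.3, 24.3, 22.2 and 21.6 CPM in vehicle PBS. The groups overlapped in each of the 4 simple comparisons, and the highest value stood in vehicle PBS 1.

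Among the transcription factors Stat2, the partner of Irf9 in the complex that type I interferon activates, was higher with metformin, while Irf1, Irf7 and Irf9 were not called. Stat2 (ENSMUSG00000040033, chr10:128270576-128292849 in mm10) had 45.7, 48.3 and 51.9 CPM in metformin PBS, against 33.1, 32.1, 35.9 and 39.5 CPM in vehicle PBS. All 3 metformin PBS libraries were above all 4 vehicle PBS libraries. The log2 fold change of metformin over vehicle after PBS was 0.47 ± 0.08 (SE), a 1.39-fold rise with a 95% interval of 1.23 to 1.56 (adjusted p = 0.00436). After PM, Stat2 had 43.2, 44.5 and 44.4 CPM in metformin PM, against 34.5, 35.6 and 40.5 CPM in vehicle PM. These groups did not overlap either, but the log2 fold change of 0.26 ± 0.09 was not called (adjusted p = 0.0834). The metformin effect averaged over instillate was called (log2 fold change 0.36 ± 0.06, adjusted p = 0.000808), and the PM effects of the drinking-water arms were not shown to differ (difference -0.21 ± 0.12, adjusted p = 0.519). Both calls held in every alternative fit and without any single library.

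Markers of several cell types moved with Stat2 after PBS. The 14 monocyte and monocyte-derived macrophage markers summed to 222.1 to 238.8 CPM in metformin PBS, against 181.3 to 187.4 CPM in vehicle PBS, and 7 of the 14 could be tested. Of these, Apoe alone was called (log2 fold change 1.07 ± 0.13, higher in metformin PBS, adjusted p = 0.00122). Without Apoe the other 13 summed to 110.4 to 134.2 CPM in metformin PBS and 128.5 to 137.9 CPM in vehicle PBS, which overlap, and the median log2 fold change of the 7 tested, Apoe included, was -0.17. After PM the sums were 197.4 to 208.8 CPM in metformin PM and 178.3 to 214.4 CPM in vehicle PM. Metformin after PBS also called the alveolar macrophage markers Lpl and Marco lower, of 14 tested. It called the neutrophil marker Mmp8 lower, of 4 tested. Neutrophil markers summed to 61.92 to 65.15 CPM in metformin PBS and 65.37 to 82.71 CPM in vehicle PBS. Alveolar macrophage markers summed to 26720 to 28680 CPM in metformin PBS and 28740 to 32800 CPM in vehicle PBS. The median log2 fold change of those 14 markers was -0.00123, so the lower sum was not shared across the list. The part of these cells in the Stat2 result was not tested. In bulk RNA, fewer cells of a type and less RNA per cell cannot be told apart.

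Irf1, a factor induced most strongly by interferon gamma and the member of its class with the highest level per length, varied more between libraries. It had 38.1, 44.7 and 43.4 CPM in metformin PM and 39.3, 33.1 and 47.8 CPM in vehicle PM. It had 31.9, 33 and 52.4 CPM in metformin PBS and 27.4, 28.4, 35.4 and 24.7 CPM in vehicle PBS. The vehicle PBS libraries were the lowest group on average, yet vehicle PBS 3 lay above vehicle PM 2, and above metformin PBS 1 and 3. The log2 fold change was 0.46 ± 0.16 for PM with vehicle (adjusted p = 0.114) and 0.43 ± 0.16 for metformin after PBS (adjusted p = 0.152). Without metformin PBS 4, whose Irf1 level was the highest of all, PM with vehicle called Irf1 (0.46, SE 0.122, adjusted p = 0.0329). With no filter on low counts, PM with vehicle (adjusted p = 8.29e-05) and metformin after PBS (adjusted p = 0.00052) both called it. Irf9, the DNA-binding part of the Stat2 complex, kept a widest size limit of 1.488-fold, and the scarce Irf7, which amplifies interferon production, of 2.963-fold.

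The IFIT proteins, which bind viral RNA ends and block their translation, were scarce in every group. Ifit2 had 0.496, 2.55 and 1.40 CPM in metformin PM and 1.84, 1.40 and 1.79 CPM in vehicle PM. It had 1.80, 1.91 and 3.39 CPM in metformin PBS and 3.80, 0.940, 1.59 and 2.68 CPM in vehicle PBS. All groups overlapped, no comparison was called, and at these counts changes of up to 3.227-fold remained inside an interval.

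Of the enzymes that act on nucleic acids and nucleotides, only Samhd1 was called, and it was lower after PM. Samhd1 (ENSMUSG00000027639, chr2:157097533-157135265) breaks down deoxynucleotides and so starves reverse transcription. It had 317, 328 and 348 CPM in metformin PM, against 410, 439 and 446 CPM in metformin PBS. With vehicle it had 358, 368 and 371 CPM in vehicle PM, against 394, 411, 391 and 452 CPM in vehicle PBS. In each arm every PM library lay below every PBS library. The log2 fold change of PM over PBS was -0.38 ± 0.06 with metformin, or 0.767-fold (95% interval 0.704 to 0.836, adjusted p = 0.000246). With vehicle it was -0.17 ± 0.06 (0.818- to 0.962-fold, adjusted p = 0.0921), which is not called, and the difference between the arms was not called either (adjusted p = 0.285). Averaged over the arms, Samhd1 fell by 0.28 ± 0.04 on the log2 scale (adjusted p = 9.1e-05). Both calls held in every alternative fit and without any single library. Markers of other cells also moved with PM over PBS with metformin. Of 7 tested monocyte markers 3 were called higher (Mmp14, Itgam and Mmp12) and 1 lower (Apoe), with sums of 197.4 to 208.8 CPM in metformin PM and 222.1 to 238.8 CPM in metformin PBS. The plasma cell genes Jchain and Igkc were higher, in a list of 7 that summed to 2.957 to 8.564 CPM in metformin PM and 1.694 to 3.504 CPM in metformin PBS. Neutrophil markers summed to 65.66 to 65.98 CPM in metformin PM and 61.92 to 65.15 CPM in metformin PBS, with Ly6g, Retnlg and Camp at 0 in every group. Of the 4 neutrophil markers tested, Mmp8 was called higher (0.43 ± 0.14, adjusted p = 0.0498). Of 8 tested epithelial and endothelial markers, 5 were called higher (Pecam1, Sftpa1, Sftpc, Sftpb and Cldn5) and 1 lower (Epcam). They summed to 180.5 to 230.8 CPM in metformin PM and 160.6 to 221.2 CPM in metformin PBS. The part of these cells in the Samhd1 result was not tested.

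Adar and Eif2ak2 had narrow limits. Adar, which edits adenosines in double-stranded RNA, kept a widest size limit of 1.216-fold and Eif2ak2, a kinase that stops translation on sensing such RNA, of 1.318-fold. Oas1a, which makes the signal for RNA decay, reached 1.822-fold. Of the 75-base runs of Oas1a, 47.6% also occur in Oas1g, so its counts are uncertain, and 13.1% of those of Adar occur in Chrnb2.

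Trim25 was the ubiquitin-pathway gene that moved, lower with PM in vehicle mice and higher with metformin among PM mice. Trim25 (ENSMUSG00000000275, chr11:88999376-89020293) is the ubiquitin ligase that switches on Ddx58, and it was the member with the highest level. It had 632, 552 and 539 CPM in metformin PM, against 465, 362 and 469 CPM in vehicle PM. In the PBS groups it had 586, 507 and 609 CPM in metformin PBS and 503, 511, 591 and 603 CPM in vehicle PBS. Vehicle PM held the 3 lowest values of the 13, with vehicle PM 2 the lowest, and the other 3 groups overlapped.

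PM over PBS with vehicle gave Trim25 a log2 fold change of -0.35 ± 0.09, or 0.783-fold (95% interval 0.686 to 0.893, adjusted p = 0.0256). With metformin the PM effect was 0.02 ± 0.10 (0.881- to 1.16-fold, adjusted p = 0.94). Metformin over vehicle after PM gave 0.41 ± 0.10, or 1.33-fold (95% interval 1.16 to 1.53, adjusted p = 0.0126), and after PBS 0.04 ± 0.09. Averaged over instillate the metformin effect was 0.23 ± 0.07 (adjusted p = 0.0317). The difference of the PM effects, 0.37 ± 0.13, had an unadjusted p of 0.0112 in edgeR's test and an adjusted p of 0.222, so the arms were not shown to differ. With no filter on low counts that difference was called (0.36, adjusted p = 0.00172). In PM with vehicle, 3 of 7 tested monocyte markers were called higher (Mmp14, Itgam and Mmp12) and 1 lower (Fcgr4), with sums of 178.3 to 214.4 CPM in vehicle PM and 181.3 to 187.4 CPM in vehicle PBS. Jchain and Igkc, the 2 plasma cell genes tested, were higher too, in a list that summed to 3.089 to 8.708 CPM in vehicle PM and 1.266 to 3.603 CPM in vehicle PBS. After PM the 8 dendritic cell markers other than Bst2 summed to 31.28 to 35.87 CPM in metformin PM, against 24.44 to 27.8 CPM in vehicle PM, where Tcf4 was called higher (0.40 ± 0.10, adjusted p = 0.0208). The epithelial and endothelial markers summed to 180.5 to 230.8 CPM in metformin PM, against 136.6 to 185.3 CPM in vehicle PM. The part of these cells in the Trim25 results was not tested.

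The Trim25 calls rested on single libraries. PM with vehicle was lost without vehicle PM 2 (-0.24, adjusted p = 0.166), vehicle PBS 3 (-0.32, adjusted p = 0.0704) or vehicle PBS 4 (-0.31, adjusted p = 0.087). Metformin after PM was lost without vehicle PM 2 (0.30, adjusted p = 0.0784) or metformin PM 1 (0.33, adjusted p = 0.0871). The averaged metformin effect was lost without vehicle PBS 1 (adjusted p = 0.0639), vehicle PBS 2 (0.0671), metformin PBS 1 (0.0593), metformin PBS 4 (0.0893), vehicle PM 2 (0.0835) or metformin PM 1 (adjusted p = 0.1), and with the replicate block (0.15, adjusted p = 0.187).

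The remaining tested members of the class were called in no comparison. Parp9, Dtx3l and Parp14, partners in ADP-ribose and ubiquitin transfer, kept widest size limits of 1.186-, 1.297- and 1.283-fold. Trim30a, which restrains signalling from pattern receptors, kept 1.29-fold. Its level was higher in all 3 metformin PM libraries (67.3, 74.3 and 66.6 CPM) than in vehicle PM (56.9, 63.1 and 59.2 CPM), with a log2 fold change of 0.22 ± 0.07 that was not called (adjusted p = 0.0731). With the replicate block it was called (0.27, adjusted p = 0.0401). Isg15, a ubiquitin-like modifier that is attached to other proteins, had 1.80 CPM on average, and changes of up to 3.125-fold lay inside its intervals.

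**Figure D2:**
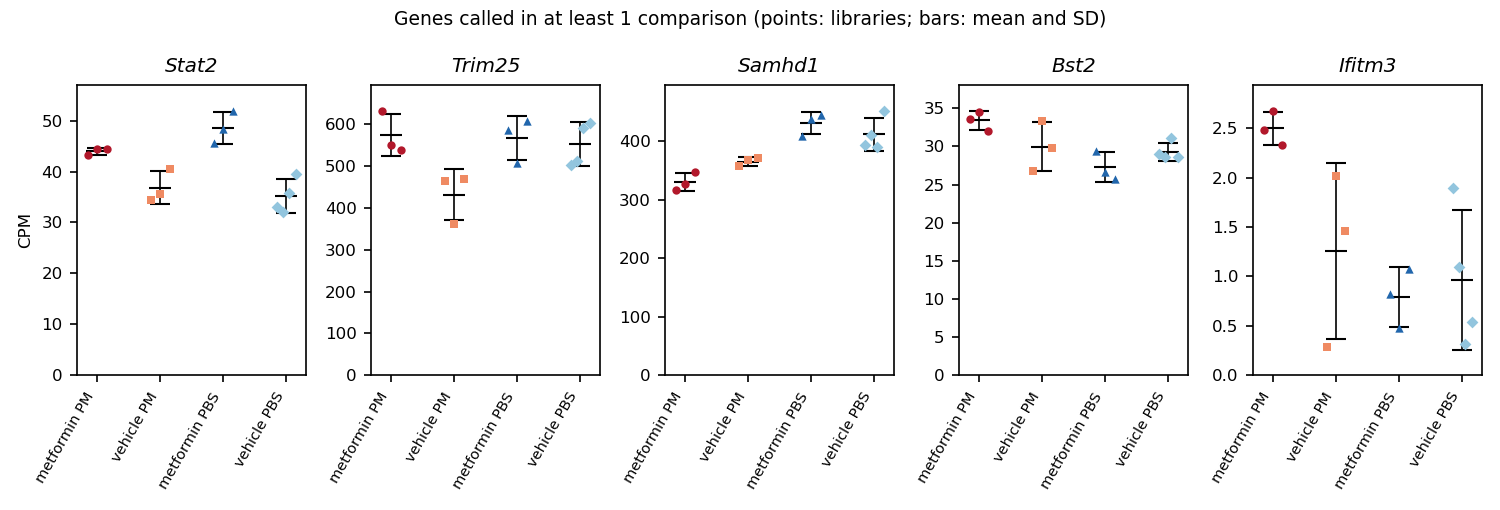
CPM of the 5 genes called in at least 1 comparison, with 1 point per library and the mean and SD of each group, for metformin PM, vehicle PM, metformin PBS and vehicle PBS. Trim25 is lowest in vehicle PM, Samhd1 is lower in both PM groups, and Stat2 is highest in metformin PBS, where it has 45.7 to 51.9 CPM.

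Factors that hold viruses at membranes gave both rises of PM with metformin, each small in counts or in size. Bst2 (ENSMUSG00000046718, chr8:71534264-71537437) tethers budding virus to the cell surface. It had 33.6, 34.5 and 32.1 CPM in metformin PM, against 29.5, 26.6 and 25.7 CPM in metformin PBS. In the vehicle arm it had 26.8, 33.3 and 29.8 CPM in vehicle PM, against 29, 28.7, 31.1 and 28.6 CPM in vehicle PBS. The metformin groups did not overlap and the vehicle groups did. PM over PBS with metformin gave a log2 fold change of 0.30 ± 0.09 (95% interval 1.07- to 1.40-fold, adjusted p = 0.0382), and with vehicle 0.03 ± 0.09 (0.898- to 1.16-fold), with a difference that was not called (0.27 ± 0.13, adjusted p = 0.419). Bst2 is itself on the list of 9 dendritic cell markers. The other 8 summed to 31.28 to 35.87 CPM in metformin PM and 30.12 to 32.96 CPM in metformin PBS, which overlap, and of the 3 markers tested Bst2 alone was called there. The monocyte, plasma cell, neutrophil, epithelial and endothelial markers given beside Samhd1 moved in this comparison, and their part in the Bst2 result was not tested.

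The Bst2 call was lost with DESeq2 (adjusted p = 0.117), with no filter (0.0812), with only the groups compared (0.0534) and with the replicate block (adjusted p = 0.0566). It was also lost without metformin PBS 3 (0.27, adjusted p = 0.131), metformin PBS 4 (0.25, adjusted p = 0.158), vehicle PM 3 (0.29, adjusted p = 0.0578), metformin PM 1 (0.28, adjusted p = 0.102), metformin PM 3 (0.26, adjusted p = 0.147) or metformin PM 4 (0.31, adjusted p = 0.0605).

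Ifitm3 (ENSMUSG00000025492, chr7:141009586-141010770) blocks viral fusion in endosomes and was scarce. It had 2.48, 2.68 and 2.33 CPM in metformin PM, against 0.818, 0.478 and 1.08 CPM in metformin PBS. In the vehicle arm it had 0.283, 2.02 and 1.46 CPM in vehicle PM, against 1.90, 1.1, 0.319 and 0.536 CPM in vehicle PBS. Metformin PM held the 3 highest values of all, and the vehicle groups overlapped widely. PM over PBS with metformin gave a log2 fold change of 1.63 ± 0.51, or 3.10-fold (95% interval 1.48 to 6.51, adjusted p = 0.0409). Only 2 libraries outside metformin PM reached the filter's level of 1.57 CPM, which 3 libraries must reach, so Ifitm3 was tested only through the group where it was high. The difference of the PM effects was 1.31 ± 0.76 (adjusted p = 0.542), with a size limit of 7.485-fold, the widest of all members. Endothelial and epithelial cells, which also express Ifitm3, had 8 markers in the check, all tested. For PM with metformin 5 of them were called higher (Pecam1, Sftpa1, Sftpc, Sftpb and Cldn5) and 1 lower (Epcam). Their sum was 180.5 to 230.8 CPM in metformin PM and 160.6 to 221.2 CPM in metformin PBS, and their part in the Ifitm3 result was not tested.

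The Ifitm3 call was lost with DESeq2 (1.65, adjusted p = 0.0636) and with the replicate block (1.63, adjusted p = 0.0536). It was lost without vehicle PBS 2 (1.63, adjusted p = 0.051), metformin PBS 1 (1.64, adjusted p = 0.0778), metformin PBS 3 (1.37, adjusted p = 0.166), metformin PBS 4 (1.92, adjusted p = 0.0705), vehicle PM 3 (1.62, adjusted p = 0.0518), metformin PM 1 (1.63, adjusted p = 0.0843), metformin PM 3 (1.57, adjusted p = 0.115) or metformin PM 4 (1.67, adjusted p = 0.0746). Ifitm2, its neighbour in the family, had 10.8, 14.3 and 15.9 CPM in metformin PM, against 17.0, 21 and 16.6 CPM in vehicle PM. These groups did not overlap, and the log2 fold change of -0.42 ± 0.13 was not called (adjusted p = 0.0633). It was called without metformin PM 4 (-0.54, adjusted p = 0.0355) and with no filter on low counts (-0.43, adjusted p = 0.0366). Of the 75-base runs of Ifitm2, 42.0% occur in other genes, so its counts are uncertain. Rtp4, a chaperone of receptors, averaged 1.06 CPM and was called nowhere, with changes of up to 3.221-fold inside its intervals.

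Gbp2 and Gbp3, GTPases that attack the vacuoles of intracellular microbes, and Tap1, a chain of the pump that carries peptides to MHC class I, were called in no comparison. Gbp2 had 30.8, 29 and 30.3 CPM in metformin PM and 23.2, 23.5 and 29.6 CPM in vehicle PM. It had 27.8, 24.7 and 45.4 CPM in metformin PBS and 27.4, 30.2, 21.4 and 30.2 CPM in vehicle PBS. Metformin PBS 4 stood above every other library, and each group overlapped with the others. The widest size limit was 1.526-fold for Gbp2, 1.366-fold for Tap1 and 2.207-fold for Gbp3. Tap1 was lower in every vehicle PM library (40.0, 44.6 and 40.3 CPM) than in vehicle PBS (50.6, 47.0, 44.6 and 53.6 CPM), though 1 library of each group had 44.6 CPM, and this was not called (log2 fold change -0.23 ± 0.10, adjusted p = 0.256).

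Of the remaining pair, Ifi35, a leucine-zipper protein released as a danger signal, had 22.2, 25.3 and 33 CPM in metformin PM and 27.5, 26.7 and 27 CPM in vehicle PM. It had 32.9, 28 and 30.8 CPM in metformin PBS and 31.3, 22.1, 26.0 and 28.6 CPM in vehicle PBS, and all comparisons stayed within 1.502-fold. Xaf1, an antagonist of an inhibitor of apoptosis, had 0.993, 1.53 and 1.56 CPM in metformin PM, against 1.80, 2.39 and 4.16 CPM in metformin PBS. These groups did not overlap, and the log2 fold change of -1.05 ± 0.35 was not called (adjusted p = 0.0536). Without metformin PBS 1 it was called (-1.29, adjusted p = 0.02), and with no filter as well (-1.06, adjusted p = 0.043).

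As a group the members lay close to no change. The median log2 fold change of the 28 was -0.09 for PM with vehicle and -0.08 for the metformin arm, beside medians of 0.00 over all tested genes. It was 0.01 for metformin after PBS, 0.05 for metformin after PM, 0.02 for the difference of the PM effects and -0.01 for metformin averaged over instillate. Fitted fold changes were below 0 in 18 members for PM with vehicle, 17 for PM with metformin, 14 for metformin after PBS and 11 for metformin after PM. Averaged over drinking water the PM effect was below 0 in 21 of 28 members, with a median of -0.08, where 49.5% of all tested genes were below 0. The libraries of the groups did not overlap for 5 members in PM with vehicle (14.9% of all tested genes), 5 in PM with metformin (30.0%), 4 in metformin after PBS (13.7%) and 7 in metformin after PM (26.5%).

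Taken singly, the intervals limited most members to small changes in each comparison. They were not adjusted for their number, so they need not all hold together. The 95% interval lay wholly inside 1.5-fold for 20 of 28 members in PM with vehicle, 21 in PM with metformin, 17 in metformin after PBS and 18 in metformin after PM. Those shares were 71.4%, 75.0%, 60.7% and 64.3%, where all tested genes had 76.3%, 70.3%, 75.0% and 73.0%. For the difference of the PM effects 15 of 28 intervals lay inside 1.5-fold (53.6%, beside 61.2% of all tested genes). Inside 2-fold lay 23, 24, 23 and 24 members in the 4 simple comparisons, in that order, beside 92.2%, 88.9%, 91.1% and 91% of all tested genes. For the difference 21 lay inside 2-fold, beside 82.5%. With PM averaged over drinking water, 23 members lay inside 1.5-fold and 25 inside 2-fold, beside 83.1% and 95.7% of all tested genes. With metformin averaged over instillate the counts were 22 and 26, beside 83.9% and 96.9%. In all 7 comparisons, 13 members stayed inside 1.5-fold and 21 inside 2-fold.

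The wide limits fell on the scarce members. Of the 20 members with a mean of at least 10 CPM, 19 were inside 1.5-fold in PM with vehicle, with Irf1 outside at 1.734-fold, and all 20 in PM with metformin. The counts were 16 in metformin after PBS and 17 in metformin after PM. The narrowest limits in the simple comparisons belonged to Parp14, Dtx3l and Bst2 for PM with vehicle, Eif2ak2, Trim30a and Trim25 for PM with metformin, Samhd1, Adar and Trim30a for metformin after PBS, and Adar, Ddx58 and Ifih1 for metformin after PM. Bst2, for example, was held within 1.157-fold in PM with vehicle and Adar within 1.143-fold in metformin after PM. The 3 widest in each of these were Ifitm3 and others of Rtp4, Ifit2 and Xaf1, and all of these averaged under 3 CPM.

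**Figure D3:**
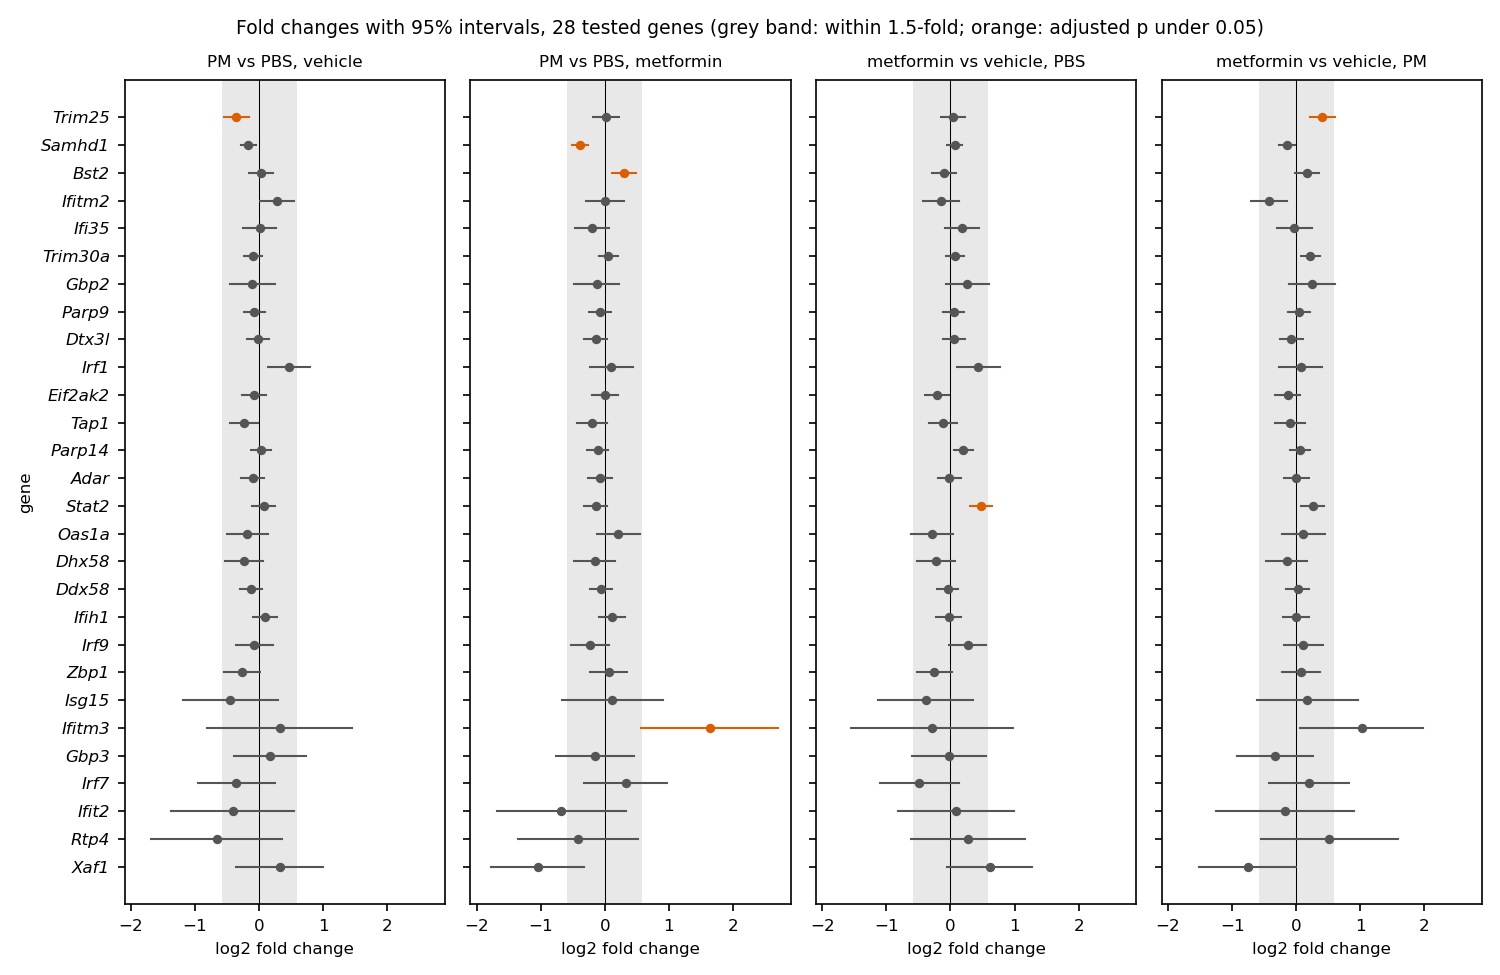
Log2 fold change with its 95% interval for the 28 tested genes, ordered by level per kb, in the 4 simple comparisons; the grey band spans 1.5-fold in either direction and orange marks an adjusted p under 0.05. Most intervals of the abundant genes lie inside the band, and those of the low genes at the bottom cross it.

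The 8 untested members stayed near the detection floor, with ratios that cover counting error only. Ifit1 and Ifit3 are RNA-binding IFIT proteins, Oasl2 is a relative of Oas1a, Rsad2 makes a chain-terminating nucleotide and Cmpk2 supplies its precursor, Usp18 removes Isg15 from proteins, Mx1 is an antiviral GTPase and Ifi44 is a cytoplasmic protein. Summed over the libraries of metformin PM, vehicle PM, metformin PBS and vehicle PBS, in that order, Ifit1 had 32, 17, 15 and 26 counts. In the same order Cmpk2 had 31, 10, 20 and 27, Oasl2 20, 22, 18 and 15, Rsad2 30, 13, 10 and 12, and Ifit3 12, 11, 6 and 26 counts. Mx1 had 11, 2, 6 and 5 counts, Usp18 8, 2, 4 and 5, and Ifi44 3, 0, 2 and 0.

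The highest of these sums belonged to metformin PM for Ifit1, Rsad2, Cmpk2, Usp18, Mx1 and Ifi44. The Rsad2 level in CPM was 2.54 times as high in metformin PM as in metformin PBS (counting interval 1.21 to 5.81). Cmpk2 was 2.73 times as high in metformin PM as in vehicle PM (1.30 to 6.24). However, metformin PM 3 alone held 20 of the 30 Rsad2 counts, 18 of the 31 Cmpk2 counts and 18 of the 32 Ifit1 counts. Ifit3 was 0.30 times as high in metformin PBS as in vehicle PBS (0.101 to 0.746), where vehicle PBS 4 held 13 of the 26 counts. With 41.1% of its 75-base runs shared with Ifit3b, its counts are uncertain. Mx1 in metformin PM against vehicle PM gave a ratio of 4.84 (1.06 to 44.9) on 2 vehicle counts. No test across replicates was made of these genes.

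Some single libraries stood out among the members. Metformin PBS 4 had the highest level of the 13 for 9 members (Irf1, Irf9, Stat2, Oasl2, Parp9, Parp14, Gbp2, Tap1 and Xaf1), and metformin PM 3 for 9 others (Ifih1, Irf7, Ifit1, Rsad2, Cmpk2, Usp18, Trim30a, Bst2 and Ifitm3). The median deviation of the tested members from their means over the 13 libraries was 0.15 in metformin PBS 4 and 0.10 in metformin PM 3 on the log2 scale, where all tested genes had medians of 0.00 and 0.01. The share of all tested genes that were highest in either library was not counted. Gbp2, for example, had 45.4 CPM in metformin PBS 4, against 27.8 and 24.7 CPM in its group. The untested members summed to 79 counts in metformin PM 3, against 11 to 43 counts in the other 12 libraries.

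Metformin PBS 4 also had the highest level for 20 of 96 further interferon pathway genes above 0. For this count too, the share of all tested genes was not counted. The following genes were chosen after their values were seen. Gbp4 had 3.70 CPM in metformin PBS 4 and at most 0.778 CPM elsewhere, and Iigp1, another GTPase against vacuolar microbes, 2.62 CPM and at most 0.637 CPM elsewhere. Cxcl9, a chemokine induced by interferon gamma, had 15.2 CPM there and 1.63 to 7.05 CPM elsewhere. T and NK cell markers, 12 genes of the cells that make interferon gamma, summed to 0.382 to 1.554 CPM in every library. The sum was 1.54 CPM in metformin PBS 4, against 0.8185 and 0.6371 CPM in metformin PBS 1 and 3. It was highest in vehicle PM 1, at 1.554 CPM. The part of these cells was not tested.

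**Figure D4:**
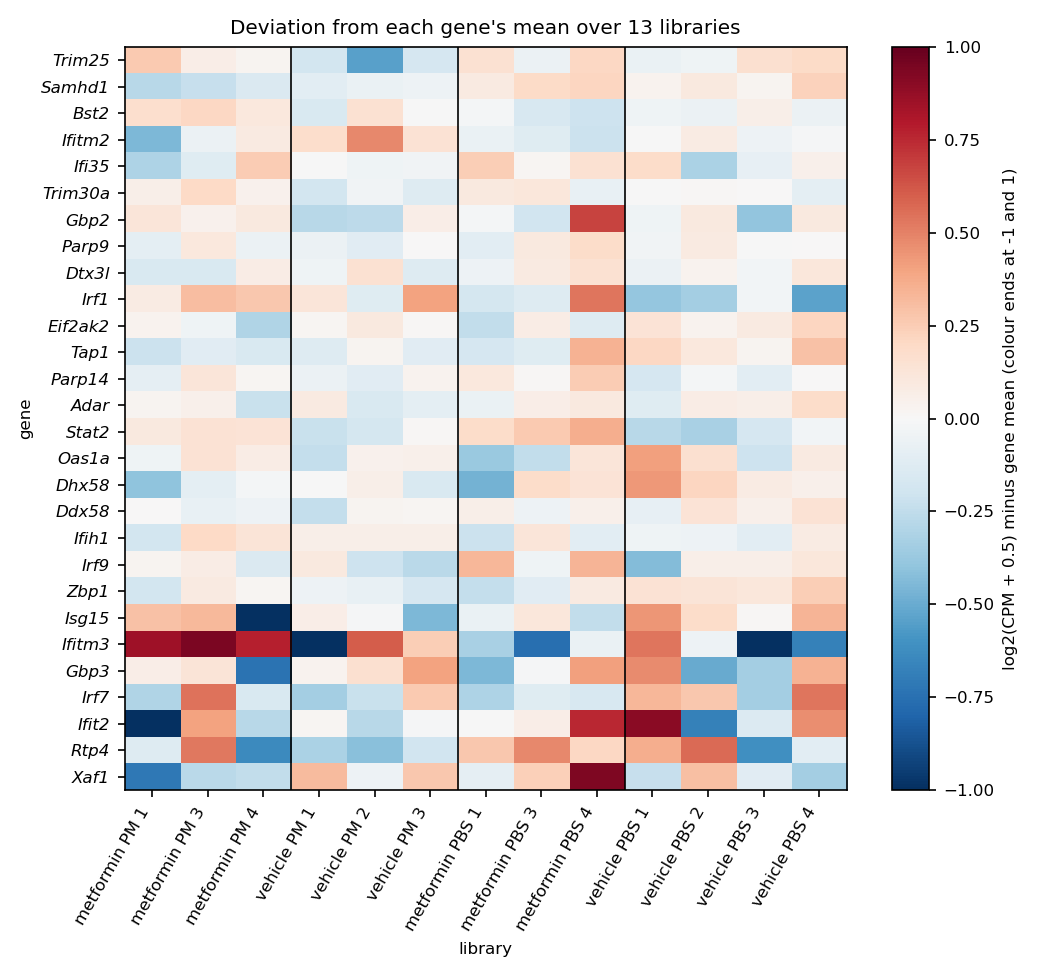
Deviation of each of the 28 tested genes from its mean over the 13 libraries, as log2 of CPM plus 0.5, with libraries in columns grouped as metformin PM, vehicle PM, metformin PBS and vehicle PBS; colours end at -1 and 1. Metformin PBS 4 is red for Irf1, Stat2, Gbp2, Tap1 and Xaf1, and no group is red or blue across the genes.

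None of the interferon ligand genes examined was found at a level above a few counts. Other interferon genes, such as Ifna9 and Ifna11, were not examined. Of 12 interferon ligand genes, 10 had 0 counts in all 13 libraries (Ifnb1, Ifna1, Ifna2, Ifna4, Ifna5, Ifna6, Ifnab, Ifne, Ifnl2 and Ifnl3). A count of 0 in a library allows up to 3 counts, or 0.37 to 0.539 CPM depending on its depth, and 0 over the 85616379 counts of all libraries allows 0.035 CPM. These limits cover counting error only. Ifnb1, Ifna4 and Ifne share no 75-base run with another gene. In Ifnab, Ifna2, Ifna6, Ifnl2, Ifnl3, Ifna5 and Ifna1, 4.98% to 37.3% of the runs occur in other genes, so their counts are uncertain. Ifng had 1 count, in metformin PBS, and Ifnk 8 counts, with 3 in metformin PM, 1 in vehicle PM, 2 in metformin PBS and 2 in vehicle PBS.

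Of 107 further pathway genes in the table, 79 were tested, and more of them were called higher than lower with PM. The list was chosen with earlier results of these data known, so its counts are not independent of them. PM with vehicle called 7 higher and 0 lower (2.6% and 2.26% of all tested genes). PM with metformin called 10 higher and 4 lower (7.18% and 5.6%). Metformin after PBS called 1 higher and 0 lower (1.13% and 1.93%), and metformin after PM 4 higher and 2 lower (4.08% and 2.81%). The difference of the PM effects called 3 higher and 0 lower (0.89% and 0.546%). PM averaged over drinking water called 14 higher and 5 lower (8.63% and 7.76%), and metformin averaged over instillate 3 higher and 4 lower (5.41% and 5.41%). The median log2 fold change of the 79 lay between -0.03 and 0.01 in all 7 comparisons.

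Among the receptors and kinases, Ifngr1, the ligand-binding chain of the interferon gamma receptor, was higher in metformin PM. It had 310, 275 and 290 CPM in metformin PM, against 203, 189 and 201 CPM in vehicle PM. In the PBS groups it had 224, 209 and 208 CPM in metformin PBS and 171, 198, 202 and 194 CPM in vehicle PBS. All 3 metformin PM libraries lay above the other 10. Metformin over vehicle after PM gave a log2 fold change of 0.56 ± 0.06 (adjusted p = 3.2e-05), and PM over PBS with metformin 0.45 ± 0.06 (adjusted p = 9.93e-05). The difference of the PM effects was 0.40 ± 0.09 (adjusted p = 0.0251). The call on that difference was lost without vehicle PBS 2 (0.39, adjusted p = 0.0626), metformin PBS 3 (0.38, 0.077), metformin PBS 4 (0.38, 0.0834), vehicle PM 2 (0.37, 0.0737), vehicle PM 3 (0.40, 0.0528), metformin PM 1 (0.35, adjusted p = 0.105) or metformin PM 4 (0.40, adjusted p = 0.0548). Of the other receptors and kinases, PM with metformin called Ifnar1, a chain of the type I receptor, higher (0.25 ± 0.08, adjusted p = 0.0351), and Tyk2 lower (-0.22 ± 0.06, adjusted p = 0.0172). Ifnar1 had 57.3, 66.1 and 59.8 CPM in metformin PM, against 50.4, 53.4 and 49.9 CPM in metformin PBS, and these groups did not overlap. Its call was lost with DESeq2 (0.25, adjusted p = 0.0889), with no filter on low counts (0.25, adjusted p = 0.0532) and with only the groups compared (0.25, adjusted p = 0.0508). It was also lost without metformin PBS 1 (0.23, adjusted p = 0.0876), metformin PBS 3 (0.28, 0.0635), metformin PBS 4 (0.23, 0.126), vehicle PM 3 (0.24, 0.0513), metformin PM 3 (0.18, 0.215) or metformin PM 4 (0.26, adjusted p = 0.0712). The Tyk2 call was lost without metformin PBS 4 (-0.21, adjusted p = 0.06) or metformin PM 1 (-0.20, adjusted p = 0.0592). The marker genes called in metformin PM, given above beside Samhd1, Trim25 and Ifitm3, moved in the same comparisons, and their part was not tested.

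Of 52 tested further interferon-stimulated genes, 4 were called higher with PM and vehicle, where 2.6% of all tested genes were. With PM and metformin 6 were called higher and 2 lower (Mlkl and Gbp8), beside 7.18% and 5.6% of all tested genes. The Mlkl call was lost with DESeq2 (adjusted p = 0.135), no filter (0.0917), only the groups compared (0.0596) and the replicate block (0.0662). It was also lost without metformin PBS 1 or 4, or metformin PM 1 or 3. The Gbp8 call was lost without metformin PBS 3 (adjusted p = 0.11) or 4 (0.153), or metformin PM 1 (0.103), 3 (0.0629) or 4 (0.076). Slfn2, a Schlafen-family regulator of growth, had 344, 343 and 342 CPM in metformin PM and 289, 268 and 266 CPM in vehicle PM. It had 192, 179 and 168 CPM in metformin PBS and 181, 169, 219 and 166 CPM in vehicle PBS. Every PM library lay above every PBS library, with log2 fold changes of 0.94 ± 0.08 with metformin (adjusted p = 3.01e-07) and 0.58 ± 0.08 with vehicle (adjusted p = 6.63e-05). Ifi207, of the family that binds DNA in the nucleus and cytosol, had 173, 176 and 165 CPM in metformin PM and 135, 103 and 113 CPM in vehicle PM. It had 77.6, 91.7 and 82.7 CPM in metformin PBS and 92.4, 87.4, 97.6 and 86.1 CPM in vehicle PBS. PM raised it by 1.03 ± 0.08 on the log2 scale with metformin (adjusted p = 1.43e-07) and 0.37 ± 0.08 with vehicle (adjusted p = 0.00783). The effects differed by 0.66 ± 0.12 (adjusted p = 0.00538), a call that held without any single library, while the vehicle effect was lost without vehicle PM 1 (0.25, adjusted p = 0.0796).

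Ifi204, of the same family, had 24.2, 28.2 and 29.3 CPM in metformin PM and 22.2, 19.3 and 19.5 CPM in vehicle PM. It had 20.8, 16.1 and 16.6 CPM in metformin PBS and 21.7, 21.6, 23.9 and 20.4 CPM in vehicle PBS. Of the 75-base runs of Ifi204, 13.2% occur in other genes, Ifi207 among them, so its counts are uncertain. For Ifi207 the share was 2.8%, with Ifi204 among the other genes. The metformin PM libraries were the highest for Ifi204, and its PM effects differed by 0.71 ± 0.16 (adjusted p = 0.0254). The call on that difference was lost without vehicle PBS 3 (0.67, adjusted p = 0.053), metformin PBS 3 (0.64, adjusted p = 0.0885), metformin PBS 4 (0.66, 0.0858), vehicle PM 2 (0.67, 0.0716), vehicle PM 3 (0.67, 0.0682), metformin PM 3 (0.67, 0.0691) or metformin PM 4 (0.66, adjusted p = 0.0694). Cxcl10, a chemokine that draws T cells, had 14.3, 19.7 and 19.3 CPM in metformin PM, against 7.04, 2.71 and 5.70 CPM in metformin PBS, a log2 fold change of 1.78 ± 0.39 (adjusted p = 0.00473). In the vehicle arm it had 13.3, 10.4 and 15.9 CPM in vehicle PM, against 11.4, 3.92, 13.9 and 2.14 CPM in vehicle PBS, and those groups overlapped.

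**Figure D5:**
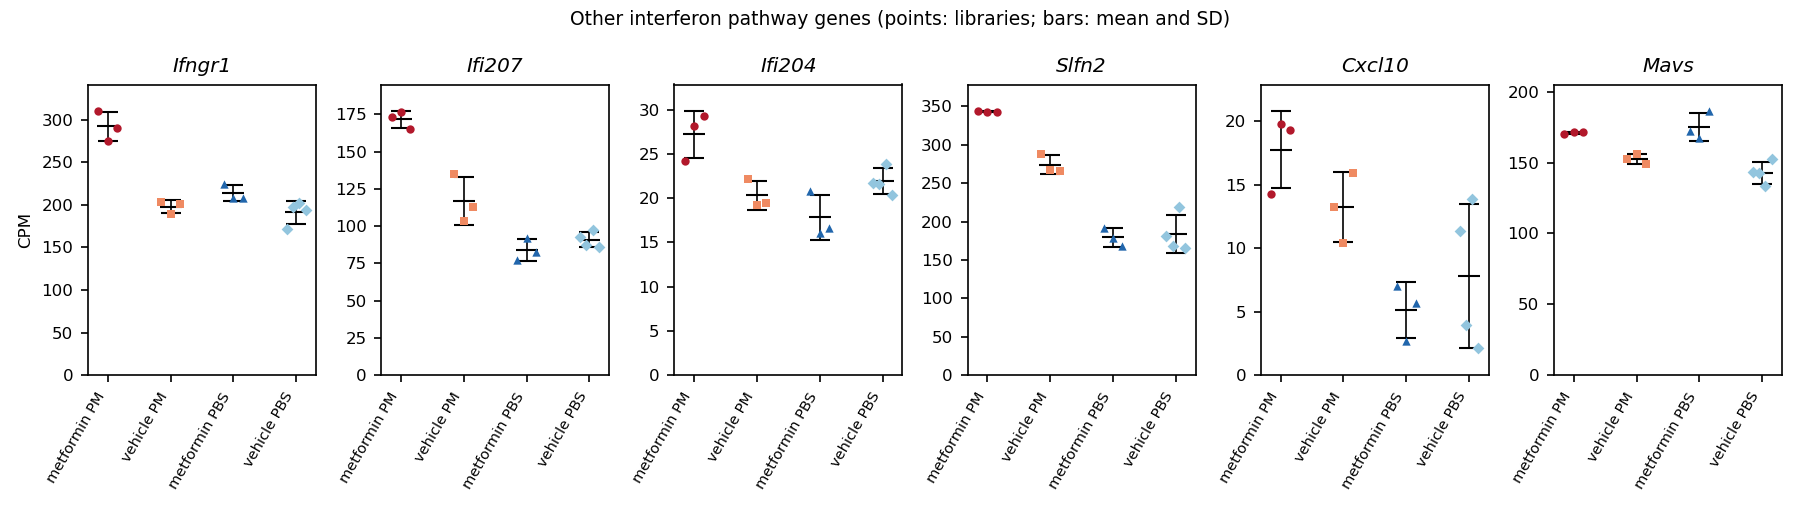
CPM of 6 further interferon pathway genes, with 1 point per library and the mean and SD of each group, for metformin PM, vehicle PM, metformin PBS and vehicle PBS. Ifngr1, Ifi207 and Ifi204 are highest in metformin PM, and Slfn2 is higher in both PM groups than in the PBS groups.

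Of 6 tested genes that restrain interferon signalling, PM with vehicle called 1 higher, where 2.6% of all tested genes were. PM with metformin called 2 higher and 1 lower, beside 7.18% and 5.6% of all tested genes. Socs3, an inhibitor of Jak kinases that other cytokines also induce, rose in both arms. It had 64.5, 97.4 and 66.5 CPM in metformin PM and 67.9, 75.7 and 93.0 CPM in vehicle PM. It had 24.9, 22.1 and 17.4 CPM in metformin PBS and 19.9, 17.1, 28.5 and 17.9 CPM in vehicle PBS. Every PM library lay above every PBS library, and the log2 fold changes were 1.83 ± 0.18 with metformin (adjusted p = 1.67e-06) and 1.91 ± 0.17 with vehicle (adjusted p = 5.65e-07). Ptpn6, a phosphatase that acts on the same kinases, was lower in metformin PM (328, 349 and 347 CPM) than in vehicle PM (381, 426 and 413 CPM), by a log2 fold change of -0.25 ± 0.05 (adjusted p = 0.00513).

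Of 12 tested genes that induce interferon, PM with vehicle called Ikbke and Traf3 higher, and metformin after PBS called Mavs higher. Of all tested genes 2.6% and 1.13% were called higher in these comparisons. Mavs, the mitochondrial adaptor to which Ifih1 and Ddx58 signal, had 172, 167 and 186 CPM in metformin PBS, against 143, 143, 133 and 152 CPM in vehicle PBS. The groups did not overlap, and the log2 fold change was 0.30 ± 0.05 (adjusted p = 0.00572). Without metformin PBS 4 it was not called (0.25, adjusted p = 0.0528). Ikbke, a kinase that activates Irf3 and Irf7, had 5.09, 6.38 and 8.29 CPM in vehicle PM, against 2.22, 2.35, 1.12 and 2.14 CPM in vehicle PBS. Every vehicle PM library lay above every vehicle PBS library, with a log2 fold change of 1.73 ± 0.30 (adjusted p = 0.00116). Traf3, an adaptor of the same pathway, had 47.3, 46.0 and 47.0 CPM in vehicle PM, against 33.9, 34.2, 43.2 and 35.2 CPM in vehicle PBS (0.35 ± 0.09, adjusted p = 0.0334). Vehicle PBS 3 came closest to the vehicle PM libraries. The Traf3 call was lost with the replicate block (0.35, adjusted p = 0.0652). It was lost without any 1 of the vehicle PM libraries (library 1, 0.34, adjusted p = 0.107, library 2, 0.36, 0.0875, and library 3, 0.35, 0.0966). Among the vehicle PBS libraries it was lost without library 1 (0.32, adjusted p = 0.0807), library 2 (0.32, 0.106) or library 4 (0.34, adjusted p = 0.0849).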

How the data were processed

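Alveolar macrophage RNA from 13 mice (3 to 4 biological replicates per group) was made into libraries with a kit that keeps no strand and read as 75 base single ends. By the submitters' processing notes the tools were bcl2fastq 2.19, TopHat2, HTSeq and edgeR, with build mm10; annotation release and strand setting are not given in the sources used here. The authors deposited 1 raw read count per gene and library, and the deposited table's Start, End and Length columns (unit other) served for positions. Levels per kb used the exon union of GENCODE M21, because the file's length exceeded it for 26 members.

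CPM are scaled by the trimmed mean of M values. edgeR 4.0.16 (R 4.3.3) fitted a quasi-likelihood model of 4 groups to 11906 genes kept by filterByExpr, with 9 residual degrees of freedom and a biological coefficient of variation of 0.0635. P-values were Benjamini-Hochberg adjusted within each of the 7 comparisons; they measure only the spread between these samples. SEs and 95% intervals are on the log2 scale, while ± with a group mean is the SD. Comparisons within PM share libraries with those against PBS. The pipeline was tested on simulated data. Alternatives were DESeq2 1.42.0, relative log expression size factors, no filter, 5 CPM in 3 libraries, only the groups compared, the replicate block, and leaving out each library.

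Every member may be named. Libraries are given for called members, for the most abundant of each role and for some other members. Except where the text says otherwise, the further pathway genes described are a choice among those called. They are not always those with the lowest adjusted p. Nampt was called higher by PM with vehicle (adjusted p = 0.00142 in edgeR's test) and with metformin (0.000117). Ptpn2 was called higher by PM with metformin (0.0012). Neither is described further. The members and lists were chosen with earlier results of these data known. Of 109 pathway genes 107 matched, and of 74 cell markers 74. Without strand, counts of the 12 members that overlap another counted gene are uncertain (Dhx58, Irf1, Irf7, Irf9, Eif2ak2, Trim30a, Dtx3l, Parp9, Gbp2, Gbp3, Tap1 and Ifi35); none of the 5 called members is among them. Intervals on single counts cover counting error only. Tables used pandas 2.3.3, SciPy 1.17.1 and NumPy 2.4.6 in Python 3.11.15, and figures Matplotlib 3.10.9.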

Additional observations from a re-analysis of the deposited data

Results flagged for a closer look

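Within vehicle PBS, the group of 4, some libraries lay far from the other 3. Irf9 had 14.9 CPM in vehicle PBS 1, where the others had 21.2 to 22 CPM. Trim30a had 60.4 CPM in vehicle PBS 4, where the others had 64.6 to 65.3 CPM. Mx1 had 0.317 CPM in vehicle PBS 1, where the others had 0.157 to 0.179 CPM, a difference of 1 count. Bst2 had 31.1 CPM in vehicle PBS 3, where the others had 28.6 to 29 CPM. Among 35 genes examined this way 4 stood out, and chance picks out about 1 in 20.

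For 3 further pathway genes the test of the difference itself set the PM effects of both arms apart. The log2 difference, metformin minus vehicle, was 0.402 for Ifngr1, 0.712 for Ifi204 and 0.664 for Ifi207. The first and second of these were not called without any 1 of several libraries named above.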

How the results depend on the processing

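No called gene changed direction under any alternative run, while the medians of the members crossed 0 where their ranges are given with both signs. With no filter on low counts, the members called were 2 for PM with vehicle, 2 for metformin after PBS, 2 for metformin after PM, 1 for the difference of the PM effects, 5 for PM averaged and 5 for metformin averaged, and the genes called 813 for metformin after PBS and 507 for the difference. DESeq2 called 1 member for PM with metformin, and the fit with only the groups compared called 200 genes for metformin after PBS. With the replicate block, PM with metformin called 1 member, metformin after PM 2 members and 535 genes, and metformin averaged 729 genes. Replicate numbers were not shown to pair the samples. Deviations of same-numbered libraries from their group means correlated at -0.102 to 0.116, and those of differently numbered libraries at -0.143 to 0.141. Such correlations, in groups of 3 to 4, cannot exclude a pairing. Leaving out 1 library gave 0 to 2 members called for PM with vehicle, 1 to 3 for PM with metformin, 1 to 1 for metformin after PBS, 0 to 2 for metformin after PM, 0 to 0 for the difference, 1 to 3 for PM averaged and 1 to 3 for metformin averaged. In the same order the genes called were 359 to 645, 884 to 1666, 121 to 503, 419 to 954, 113 to 262, 1462 to 2093 and 927 to 1416. Members inside 1.5-fold were 16 to 20, 19 to 21, 15 to 18, 18 to 20, 13 to 15, 22 to 24 and 21 to 24, again in that order. Median log2 fold changes of the members were -0.106 to -0.0554, -0.134 to -0.018, -0.0515 to 0.0456, -0.0337 to 0.098, -0.0819 to 0.0691, -0.105 to -0.0542 and -0.0213 to 0.0239. Some members not called with all libraries were called without 1 of them. For PM averaged these were Irf1 without vehicle PBS 3 (0.34) or metformin PBS 4 (0.42), Ifitm3 without vehicle PBS 1 (1.26) or vehicle PM 1 (1.23), and Dhx58 without metformin PBS 1 (-0.30). They were also Trim25 without metformin PBS 3 (-0.21) or metformin PM 1 (-0.21), and Tap1 without vehicle PBS 3 (-0.24), metformin PBS 1 (-0.27), metformin PBS 3 (-0.26) or vehicle PM 2 (-0.25). For metformin averaged they were Eif2ak2 without metformin PBS 3 (-0.22), Trim30a without metformin PBS 4 (0.17), Tap1 without metformin PBS 4 (-0.20) and Ifitm2 without metformin PM 4 (-0.34). Of single genes called, 147 of the alternative values lost the call and 1073 kept it. The cause was not tested. Depth limits the members under 6 CPM, whose intervals reach past 2-fold.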
